A study of Mus musculus with 16 samples.

Results

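The voltage-gated calcium and sodium channels of the heart were followed through every subunit gene that the arrays measured by itself. A member was any gene whose platform symbol begins with *Cacn* followed by a, b or g and a number, or is *Scn*, a number and a or b, and for which at least 1 probe set named no other gene. There were 35 such genes among 19937, with 51 of the 34760 probe sets. They comprised 10 calcium channel alpha1 genes, 4 alpha2delta genes, 3 beta genes, 7 gamma genes, 8 sodium channel alpha genes and 3 sodium channel beta genes. Of the RefSeq genes whose symbol fits the pattern, 5 had no probe set of their own and are not analysed here. The epithelial sodium channel genes, whose symbols begin with *Scnn*, did not belong.

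The hearts were those of C57BL/6 embryos at E11.5 and E13.5, each hybridised singly as a whole organ to an Affymetrix Mouse Gene 1.0 ST array, with 4 hearts in each of 4 groups (16 arrays). Mutant hearts were *Chd7*fl/fl;*Mesp1-Cre*, in which Cre expressed from the *Mesp1* locus deletes *Chd7*, a chromatin remodeller, in the anterior mesoderm and the cells that descend from it. Control hearts are called wild type in the labels, which name a cross of *Chd7*fl/+;*Mesp1-Cre* with *Chd7*fl/fl mice, and *Chd7*+/+;*Mesp1-Cre* in the study. That cross gives no *Chd7*+/+ offspring, so whether the controls carry floxed alleles or Cre is not settled here. Cells that reach the heart from outside the *Mesp1* lineage, such as neural crest cells and the nerves and glia they form, largely keep *Chd7*. Expression of *Chd7* itself was lower in every mutant heart, with a log2 FC of -1.29 at E11.5 and -1.08 at E13.5 (limma, adjusted p = 0.00132 and 0.0209).

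Voltage-gated channels open when the membrane depolarises. The alpha1 subunit of a calcium channel and the alpha subunit of a sodium channel form the pore. Alpha2delta and beta subunits bring the calcium pore to the membrane and set its gating. Gamma subunits modify the calcium pore, and sodium channel beta subunits modify the sodium pore. In heart muscle, sodium channels carry the upstroke of the action potential, L-type calcium channels admit the calcium that triggers contraction, and T-type channels contribute to pacemaking.

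Values are RMA-normalised log2 expression as the authors deposited them, so that a log2 FC is a difference of such values. Apart from a rough placing by brightness, as against the background below, levels of different probe sets were not set against each other. All 10 cardiomyocyte markers examined, among them *Tnnt2*, *Myh6* and *Actn2*, lay above the background, with a median between 12.7 and 13.2 in each heart. The background was taken from 1035 probe sets of 1027 olfactory receptor genes, most of which are known from the olfactory epithelium. Of the members, 19 exceeded the 95th percentile of these receptors in all 4 groups. These were *Cacna1a*, *Cacna1b*, *Cacna1c*, *Cacna1d*, *Cacna1g*, *Cacna1h*, *Cacna1s*, *Cacna2d1*, *Cacna2d2*, *Cacna2d4*, *Cacnb1*, *Cacnb2*, *Cacng1*, *Cacng2*, *Cacng4*, *Cacng7*, *Cacng8*, *Scn2a* and *Scn2b*. *Scn2a* exceeded this percentile on the brightest of its 14 probe sets. In no group did *Cacna1f*, *Cacna2d3*, *Cacng5*, *Scn1a*, *Scn3a*, *Scn4b*, *Scn8a*, *Scn9a* and *Scn11a* exceed it, and the other 7 did so in 1 to 3 groups. Mutant E11.5 replicates 3 and 4 and control E13.5 replicate 1 stood apart, with 27, 38 and 21 genes over 1 above every other heart of their stage in log2 expression, compared with 0 to 5 genes in the remaining hearts. Without these 3 hearts, the number of members called between mutant and control remained 0 at both stages.

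The first question was whether the channel genes differed between mutant and control hearts. None of the 35 members was called by limma at E11.5, where a gene was called when its log2 FC exceeded 0.5 in size and its adjusted p was under 0.05, against 0.251% of all genes (50 genes). At E13.5 none was called either, against 0.0451% (9 genes). The smallest adjusted p of a member was 0.0858 at E11.5 and 0.688 at E13.5. The median log2 FC of the members was 0.02 at the earlier and 0.03 at the later stage, compared with 0.00 over all genes at each stage. At E11.5 single members ranged from -0.85 to 0.43 and 31 were under 0.5 in size, and at E13.5 all 35 were, ranging from -0.45 to 0.46. The median standard error of a member's log2 FC was 0.16, so differences below the threshold were not well resolved with 4 hearts in a group. Larger ones at E11.5 were not called either: *Cacna1e* (-0.50), *Cacng7* (-0.61), *Cacna2d3* (-0.70) and *Scn7a* (-0.85). The absence of calls therefore does not show that the members were unchanged.

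Before adjustment, more members had a p under 0.05 at E11.5 than at E13.5. At E11.5, 6 members were lower in mutant hearts (17.1%, against 4.77% of all genes) and 3 were higher (8.57%, against 4.57%). The lower ones were *Cacna1d*, *Cacna1e*, *Cacna2d3*, *Cacng7*, *Cacng8* and *Scn7a*, and the higher ones *Cacna1g*, *Cacna2d2* and *Cacnb1*. At E13.5, 1 member was lower (*Cacna2d1*, against 1.98% of all genes) and 2 were higher (*Cacna1s* and *Scn3a*, against 1.97%). The 4 mutant hearts lay below all 4 controls for 4 members at E11.5 (11.4%, against 1.94% of genes) and for 2 at E13.5 (5.71%, against 2.02%). They lay above all controls for 0 members at E11.5 (against 1.99%) and for 1 at E13.5 (2.86%, against 2.06%). In a whole heart, fewer cells of a type and less RNA in each cell cannot be told apart.

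**Figure D1:**
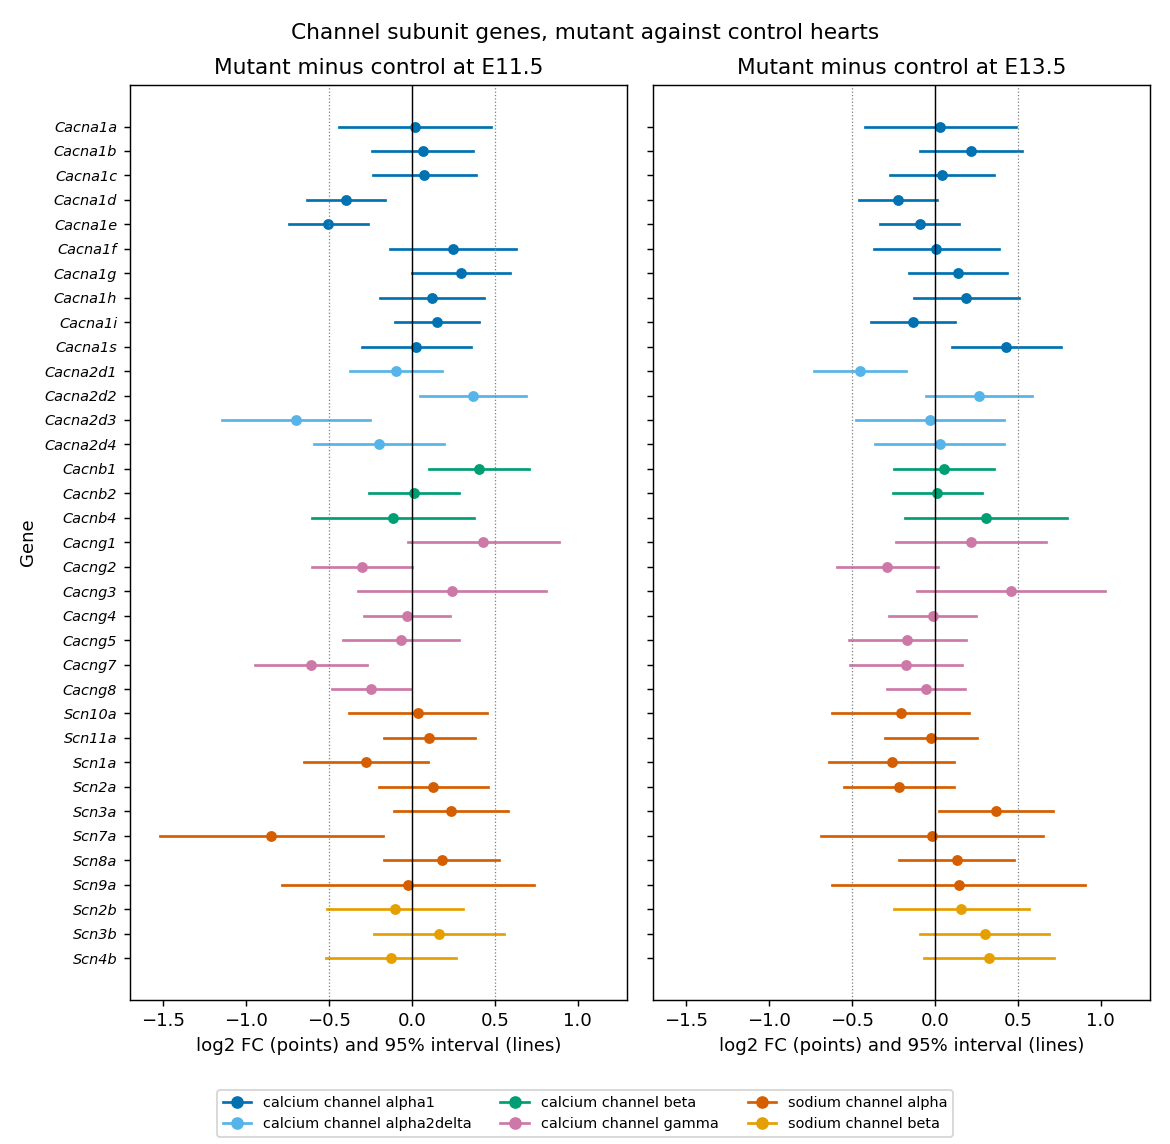
Difference in log2 expression between mutant and control hearts (x axis, log2 FC) for each of the 35 channel subunit genes (y axis), with points for the limma estimate, lines for its 95% interval, colours for the type of subunit and dotted lines at -0.5 and 0.5. Estimates ranged from -0.85 (*Scn7a*) to 0.43 in the left panel and from -0.45 (*Cacna2d1*) to 0.46 in the right, and no gene was called at either stage.

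The plot of all log2 FC values shows members of each subunit type on both sides of 0 at E11.5, with the widest interval for *Scn9a* and the 4 values over 0.5 in size all on the lower side. Those 4 were *Cacna1e*, *Cacna2d3*, *Cacng7* and *Scn7a*. Their windows of 250 bases before to 50 after the RefSeq start site (assembly GRCm38.p6) were searched for the GC box (GGGCGG or CCGCCC on the printed strand), a motif bound by Sp1-family factors. It occurred in 14 of 37 windows of 27 members (37.8%), compared with 35.7% of all 32851 windows. The TATA box (TATAAA or TTTATA on the printed strand) was found in 2 of the members' windows (5.41%, against 13.6%). The median GC content of the windows was 57.3% for members and 52.7% for all. The sequences printed are those of *Cacna1e*, with the smallest p at E11.5, of *Scn7a*, with the largest fitted log2 FC there, and of *Cacng7* and *Cacng8*, which lie next to each other on chromosome 7 with no coding gene between them and whose stage differences, given further on, had opposite signs. Each runs 5′ to 3′ on the strand of its gene. Capitals mark a GC box, and the regions are chr1:154725871-154726170 (minus strand), chr2:66784861-66785160 (minus strand), chr7:3332575-3332874 and chr7:3393792-3394091 (plus strand).
Cacna1e: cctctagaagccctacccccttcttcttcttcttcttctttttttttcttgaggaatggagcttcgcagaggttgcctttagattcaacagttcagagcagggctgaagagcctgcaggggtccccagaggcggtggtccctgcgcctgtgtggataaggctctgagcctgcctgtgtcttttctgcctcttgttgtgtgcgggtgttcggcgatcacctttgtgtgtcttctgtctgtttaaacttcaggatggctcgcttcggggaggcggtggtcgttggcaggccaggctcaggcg
Scn7a: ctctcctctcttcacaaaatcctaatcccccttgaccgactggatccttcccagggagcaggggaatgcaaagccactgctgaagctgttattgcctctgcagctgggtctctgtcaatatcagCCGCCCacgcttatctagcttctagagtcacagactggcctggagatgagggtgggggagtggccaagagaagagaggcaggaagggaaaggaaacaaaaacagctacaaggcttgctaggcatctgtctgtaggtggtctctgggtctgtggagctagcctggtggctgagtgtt
Cacng7: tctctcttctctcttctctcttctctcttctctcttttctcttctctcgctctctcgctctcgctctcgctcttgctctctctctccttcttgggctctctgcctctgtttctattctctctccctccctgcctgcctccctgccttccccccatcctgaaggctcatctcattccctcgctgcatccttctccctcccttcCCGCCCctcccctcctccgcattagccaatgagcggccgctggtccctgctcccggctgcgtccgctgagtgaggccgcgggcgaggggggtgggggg
Cacng8: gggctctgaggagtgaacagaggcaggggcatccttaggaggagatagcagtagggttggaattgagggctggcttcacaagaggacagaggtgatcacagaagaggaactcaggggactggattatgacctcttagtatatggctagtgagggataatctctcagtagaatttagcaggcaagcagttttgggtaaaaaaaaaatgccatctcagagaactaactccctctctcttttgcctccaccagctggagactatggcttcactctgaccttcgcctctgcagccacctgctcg
The window of *Scn7a* held 1 GC box and so did that of *Cacng7*, while those of *Cacna1e* and *Cacng8* held none. CpG dinucleotides numbered 11 for *Cacna1e*, 3 for *Scn7a*, 15 for *Cacng7* and 2 for *Cacng8*, against a median of 7 over all windows. A motif match is a description of the sequence and was not tied to any change in expression.

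Among the pore-forming alpha1 subunits, the difference with the smallest p was that of *Cacna1e*, which encodes the R-type calcium channel of neurons and endocrine cells. At E11.5 its log2 expression was 5.87, 6.30, 6.06 and 6.20 in the mutant hearts and 6.70, 6.69, 6.51 and 6.55 in the controls. Every mutant heart was below every control, although all 8 values lay near the olfactory background (95th percentile 6.67 in mutant and 6.62 in control hearts). Mutant expression was lower by a log2 FC of -0.50 (standard error 0.11), with an adjusted p of 0.0858 in limma. It passed with an adjusted p of 0.0395 after quantile normalisation of the arrays and of 0.046 when probe sets naming 1 gene alone were tested, and ranged up to 0.462 over the other alternatives. At E13.5 the groups overlapped, between 5.89 and 6.28 in mutant and 6.05 and 6.28 in control hearts.

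*Cacna1d*, the L-type channel known for its part in sinoatrial pacemaking, had log2 expression of 7.98, 7.78, 7.90 and 7.84 in mutant and 8.31, 8.46, 8.08 and 8.25 in control hearts at E11.5. The groups did not overlap, and differed by -0.40 (log2 FC, standard error 0.11), with an adjusted p of 0.193. At E13.5 the values were 7.84, 7.95, 8.16 and 8.24 against 8.17, 8.22, 8.31 and 8.38, and the log2 FC was -0.22. Here the highest mutant heart lay within the control range. Over both stages the mean difference was -0.31 with the smallest adjusted p of the family (0.139), and 0 members were called for this mean by limma against 0.416% of all genes. Before adjustment, 7 members were lower over both stages, where 4.26% of all genes were, and 5 were higher, where 4.53% were. The lower ones were *Cacna1d*, *Cacna1e*, *Cacna2d1*, *Cacna2d3*, *Cacng2* (on its brighter probe set, against 0.29 on the other), *Cacng7* and *Scn1a*, and the higher ones *Cacna1g*, *Cacna2d2*, *Cacnb1*, *Cacng1* and *Scn3a*. The mean uses the same hearts as the comparisons at each stage and adds no separate evidence to them.

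*Cacna1c*, which encodes the L-type channel of working heart muscle, differed by 0.08 at E11.5 (log2 FC, 95% interval -0.23 to 0.39), and by 0.04 at E13.5 (-0.27 to 0.35). Mutant hearts at E11.5 were at 9.35, 9.75, 9.02 and 9.83, whereas the controls were at 9.39, 9.56, 9.34 and 9.36. The mutant values thus lay on both sides of the controls, with an SD of 0.38 against 0.10. The same held for *Cacna1h*, a T-type channel, where the mutant hearts were at 9.41, 9.72, 9.04 and 9.93 and the controls between 9.25 and 9.53. Its mutant hearts at E13.5 (9.71, 9.77, 9.76 and 9.66) were all above the controls (9.63, 9.48, 9.52 and 9.51), by 0.19 in log2 FC (adjusted p = 1.00). *Cacna1g*, the other T-type channel above background in every group, was 0.30 higher in mutant hearts at E11.5 (adjusted p = 0.519) and 0.14 at E13.5. *Cacna1i*, the T-type channel of the thalamus, was 0.15 higher at E11.5 and 0.13 lower at E13.5, where mutant hearts lay between 6.02 and 6.13 and controls between 6.15 and 6.28. For *Cacna1s*, the L-type channel of skeletal muscle, mutant hearts at E13.5 were at 6.60, 6.91, 7.04 and 6.44 and controls at 6.41, 6.01, 6.52 and 6.32. These groups overlapped by 1 heart of each, and the log2 FC of 0.43 had an adjusted p of 1.00, compared with 0.03 at E11.5. *Cacna1a*, *Cacna1b* and *Cacna1f*, the P/Q-type, N-type and retinal L-type channels, differed by at most 0.25 at either stage, none with a p under 0.05.

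Of the alpha2delta subunits, *Cacna2d1*, which is part of cardiac and skeletal muscle L-type channels and a target of gabapentin, differed at E13.5. Its mutant hearts were at 9.68, 9.53, 9.22 and 9.71 and its controls at 9.77, 10.07, 10.21 and 9.89, so the groups did not overlap. They differed by -0.45 (log2 FC, standard error 0.13) with an adjusted p of 0.688, whereas at E11.5 it was -0.10 with overlapping groups. A second probe set of the gene gave -0.21 at E13.5 and -0.35 at E11.5. *Cacna2d3*, a subunit of brain channels, had log2 expression of 5.46, 5.67, 5.69 and 5.20 in mutant hearts and 5.98, 6.13, 5.95 and 6.75 in controls at E11.5. Mutants were all below controls, by -0.70 (log2 FC) with a standard error of 0.21 and an adjusted p of 0.248, but the means of both groups were within the range of the olfactory receptors. At E13.5 its log2 FC was -0.03. *Cacna2d2*, another gabapentin-binding subunit, was higher by 0.37 at E11.5 (adjusted p = 0.451) and by 0.27 at E13.5, with overlapping hearts at both stages. *Cacna2d4*, a retinal subunit, lay at -0.20 and 0.03.

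The beta subunits bind the pore on its cytoplasmic side. *Cacnb1*, best known from skeletal muscle, was at 8.02, 7.88, 7.45 and 7.78 in mutant and 7.77, 7.14, 7.24 and 7.35 in control hearts at E11.5. Mutant replicate 3 and control replicate 1 made the groups overlap. Their log2 FC was 0.41 (standard error 0.14), with an adjusted p of 0.345, against 0.05 at E13.5. *Cacnb2*, the main beta subunit of heart muscle, gave 0.01 at E11.5 (95% interval -0.26 to 0.28), and 0.02 at E13.5 (-0.26 to 0.29). *Cacnb4*, a beta subunit of brain channels near the background, gave -0.11 and 0.31.

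**Figure D2:**
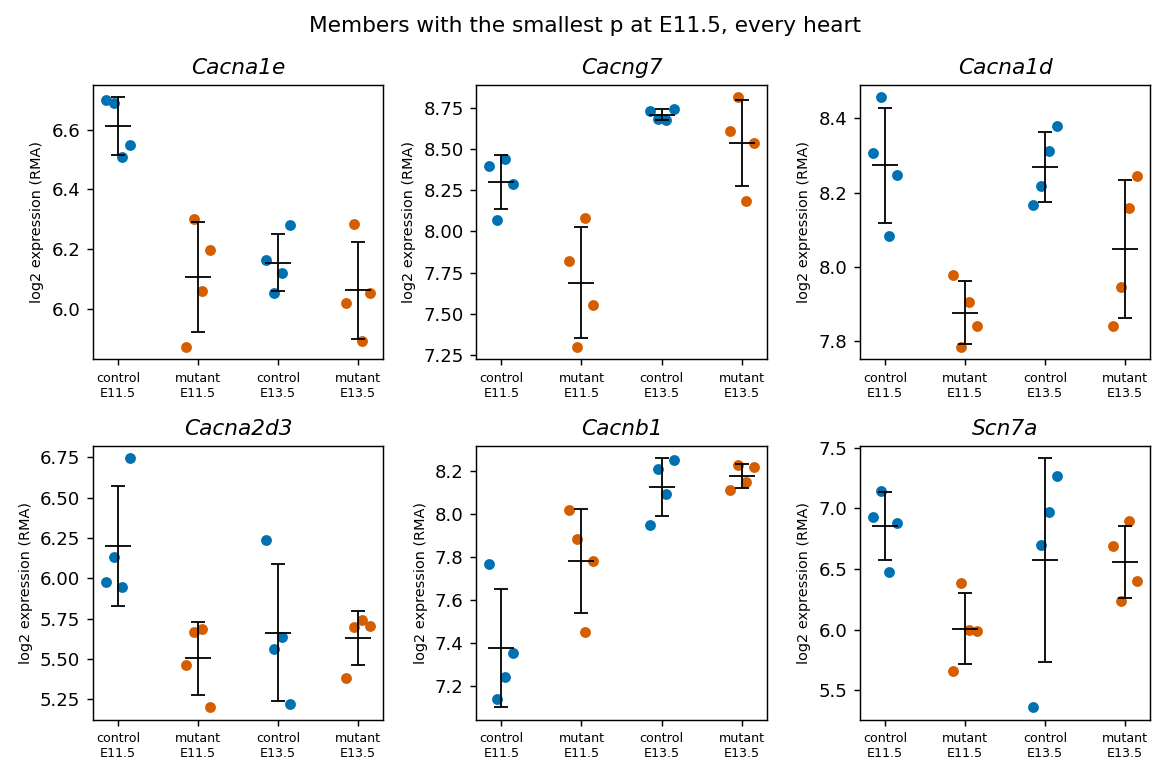
Log2 expression (y axis, RMA values) of the 6 channel genes with the smallest p at E11.5 in each of the 16 hearts (points, control blue and mutant orange), with the group mean and SD as bars. *Cacna1e*, *Cacna1d*, *Cacna2d3* and *Scn7a* had every E11.5 mutant heart below every control, whereas *Cacng7* and *Cacnb1* overlapped, and all 6 overlapped at E13.5.

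Of the 7 gamma subunits, 5 had a negative log2 FC at E11.5 and the same number at E13.5. *Cacng7*, which modulates AMPA-type glutamate receptors in neurons and can modify L-type channels, was at 7.82, 7.30, 8.08 and 7.55 in mutant hearts and 8.39, 8.07, 8.44 and 8.29 in controls at E11.5. Only mutant replicate 3 reached the lowest control. Expression was 1.53-fold lower in mutants (log2 FC -0.61, standard error 0.16, adjusted p = 0.165). The ranges of mutant and control hearts overlapped at E13.5, with a log2 FC of -0.17, where 1 mutant heart exceeded all controls. Its neighbour *Cacng8*, of the same family of receptor-associated proteins, differed by -0.25 at E11.5 (adjusted p = 0.495), with mutant hearts at 7.15, 7.15, 7.20 and 7.30 and controls at 7.55, 7.26, 7.53 and 7.45. *Cacng2* (stargazin) had log2 FC values of -0.30 and -0.29, both short of a p of 0.05. At E13.5 its mutant hearts were at 7.16, 6.85, 7.30 and 7.41 and its controls at 7.44, 7.55, 7.49 and 7.39, so that 1 mutant heart reached the control range. A second, dimmer probe set below the background had the opposite sign at both stages, 0.33 and 0.25, and the median over both probe sets gave -0.02 at E13.5. The cluster of *Cacng5*, *Cacng4* and *Cacng1* on chromosome 11, 3 genes with no other coding gene between them, showed no common direction, with -0.07, -0.03 and 0.43 at E11.5, then -0.17, -0.01 and 0.22 at E13.5. *Cacng1* is the gamma subunit of skeletal muscle. *Cacng3*, mainly known from brain, was at 0.24 and 0.46, with an SD of 0.47 and 0.57 among the mutant hearts.

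Sodium channel alpha subunits were mostly at or near the background. *Scn7a*, a sodium-sensing channel of glia and some neurons, had the largest fitted log2 FC of the family in size, against a mutant group that was not above background. At E11.5 its log2 expression was 5.66, 6.38, 6.00 and 5.99 in mutant hearts and 6.92, 7.14, 6.48 and 6.88 in controls, without overlap. The log2 FC was -0.85 (standard error 0.32, adjusted p = 0.388). The mutant mean of 6.01 lay below the 95th percentile of the olfactory receptors (6.67) and the control mean of 6.85 above it (6.62), so that the size of the difference is uncertain. At E13.5 it was -0.02, with mutant hearts between 6.23 and 6.90 and controls at 5.36, 6.70, 6.97 and 7.26. The lowest of these was control replicate 1, one of the hearts that stood apart, and the E11.5 log2 FC was -0.83 without those hearts. *Scn3a*, a channel of embryonic neurons at background level here, differed by 0.24 in the younger hearts and by 0.37 in the older ones (adjusted p = 1.00). Its E13.5 values were 4.68, 5.01, 4.50 and 4.59 in mutant and 4.61, 4.28, 4.38 and 4.05 in control hearts, where control replicate 1 exceeded both lower mutant hearts. *Scn2a*, whose brightest probe set exceeded the background in all groups, gave 0.13 and -0.22, and its 14 probe sets ranged from -0.27 to 0.38 at E11.5, against -0.22 to 0.56 at E13.5. *Scn1a* and *Scn8a*, also channels of central neurons, were at -0.28 and 0.18 in younger hearts, compared with -0.26 and 0.13 in older ones. *Scn9a*, *Scn10a* and *Scn11a*, known from sensory neurons, differed by at most 0.21 in size on their brightest probe sets. *Scn9a* had a mutant E11.5 heart, replicate 3, at 4.20 against 5.70 to 6.24 in the others. The sodium channel beta subunits *Scn2b*, *Scn3b* and *Scn4b*, single-span proteins that also act in adhesion, gave -0.10, 0.16 and -0.13 at the first stage, but 0.16, 0.30 and 0.33 at E13.5.

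The difference between the stages in mutant minus control was tested directly. 0 members were called by limma, as was 0% of all genes. Before adjustment, 2 members had a higher difference at E13.5 than at E11.5 (5.71%, against 2.12% of genes) and 0 a lower one (against 1.85%). They were *Cacna1e* (0.41, standard error 0.16) and *Cacna2d3* (0.67, standard error 0.30), both with an adjusted p of 1.00. For *Scn7a* the value was 0.83 (standard error 0.45) and for *Cacng7* 0.44 (standard error 0.22). The larger differences at E11.5 were therefore not shown to differ from those at E13.5.

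Several of these channels are known from neurons or glia, so marker genes of neurons and neural crest glia were measured beside them. Of 14 neuronal markers, 6 exceeded the background in every group and 0 were called. Before adjustment 3 were lower in mutant hearts at E11.5, *Snap25* by -0.77 (adjusted p = 0.129), *Stmn2* by -0.81 (0.314) and *Nefl* by -0.32 (0.509). The median of the list lay between 6.55 and 6.65 in the mutant hearts and 6.62 and 6.92 in the controls. Of 6 glial markers 4 exceeded the background, with a median log2 FC of -0.20 and a list median of 6.74 to 7.17 in mutant against 7.05 to 7.51 in control hearts, and 0 were called or had a p under 0.05. At E13.5 the list medians overlapped for neurons (6.51 to 6.75 against 6.38 to 6.69) and for glia (7.07 to 7.43 against 6.97 to 7.44). For both lists the mutant and control medians thus overlapped at E11.5 too, while the 3 neuronal genes (21.4% of the list, against 4.77% of all genes) were lower before adjustment at the stage at which *Cacna1e*, *Cacna2d3*, *Cacng7* and *Scn7a* were, and the part of nerve tissue in these differences was not tested. Of 7 conduction and pacemaker markers, *Hcn4*, *Tbx3*, *Shox2* and *Gja5* were higher (57.1%, against 4.57% of all genes) and *Isl1* lower before adjustment at E11.5, and 0 were called. *Hcn4* differed by 0.40 and *Shox2* by 1.03, opposite in sign to *Cacna1d* (-0.40), while *Isl1* had the same sign as *Cacna1d*. The part of pacemaker cells in the *Cacna1d* difference was not tested.

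Markers of other heart cells were also measured. Of 10 cardiomyocyte markers, 0 had a p under 0.05 before adjustment at either stage. Their median log2 FC was 0.076 at E11.5 and -0.003 at E13.5. The median of 5 endothelial and endocardial markers lay between 10.6 and 10.8 in mutant and 10.9 and 11.0 in control hearts at E11.5. At E13.5 it lay between 10.97 and 11.1 against 11.2 and 11.3, again without overlap. The log2 FC of these 5 markers had a median of only -0.05 at E11.5 and -0.14 at E13.5. Before adjustment, 1 of them was lower at each stage (20%, against 4.77% and 1.98% of all genes). *Tek*, a receptor of endothelial cells, differed by -0.24 (adjusted p = 0.312) and -0.20 (adjusted p = 1.00), and 0 of these markers were called. The median of 4 epicardial markers was higher in mutant hearts at E11.5, between 10.02 and 10.5 against 9.57 and 9.81, and the groups overlapped at E13.5. The log2 FC of these 4 markers had a median of 0.25 at E11.5 and 0.32 at E13.5. Before adjustment, 1 of them was higher at each stage (25%, against 4.57% and 1.97% of all genes). *Aldh1a2*, which makes retinoic acid, differed by 0.77 and 0.69 (adjusted p = 0.235 and 0.919), and 0 of the list were called. Among 5 smooth muscle markers, *Rgs5*, known from pericytes, was the 1 called at E11.5 (20%, against 0.251% of all genes). As a list they had a median log2 FC of 0.059 in the younger hearts. No other marker of the list had a p under 0.05 there before adjustment. *Rgs5* was lower in mutant hearts on the deposited values (log2 FC -2.04, adjusted p = 0.034) and after quantile normalisation (-2.10). Its mutant hearts were at 9.16, 7.04, 8.70 and 7.73 and the controls at 9.92, 9.80, 10.56 and 10.48, and the difference was 0.32 at E13.5. The part of these cell types in the channel differences was not tested.

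The second question was how the channel genes differed between E11.5 and E13.5. Array values were more spread at E13.5, with an SD within an array of 2.38 to 2.42 against 2.18 to 2.26, and it is not stated whether both stages were normalised in 1 run. Olfactory receptors, which served as background, were lower at E13.5 by a median of 0.56 in control and 0.61 in mutant hearts, and by 0.35 and 0.38 after quantile normalisation of all 16 arrays. A stage difference was therefore described as a rise or fall only where it was called on both the deposited and the quantile-normalised values. The control and mutant stage comparisons use the same hearts as the genotype comparisons.

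In control hearts, 3 members were called higher at E13.5 on the deposited values (8.57%, against 16.5% of all genes) and 1 on both sets of values (2.86%, against 9.92%). Lower at E13.5 were 4 members (11.4%, against 12.3%) and 3 on both (8.57%, against 7.14%). In mutant hearts 2 were called higher (5.71%, against 16.8%), 1 of them on both (2.86%, against 10.2%). Lower were 2 (5.71%, against 12.8%), 1 on both (2.86%, against 7.28%). These shares were close to or under those of all genes. The count in control hearts was 7 with all hearts and 11 without control E13.5 replicate 1. The median log2 FC of the members was -0.22 in control and -0.04 in mutant hearts, against 0.04 over all genes in each. Quantile normalisation alone gave 2 higher and 3 lower in control hearts and 2 of each in mutant hearts, adding *Scn10a* (0.53) in controls and *Cacng3* (0.86) and *Cacna2d2* (-0.60) in mutants.

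**Figure D3:**
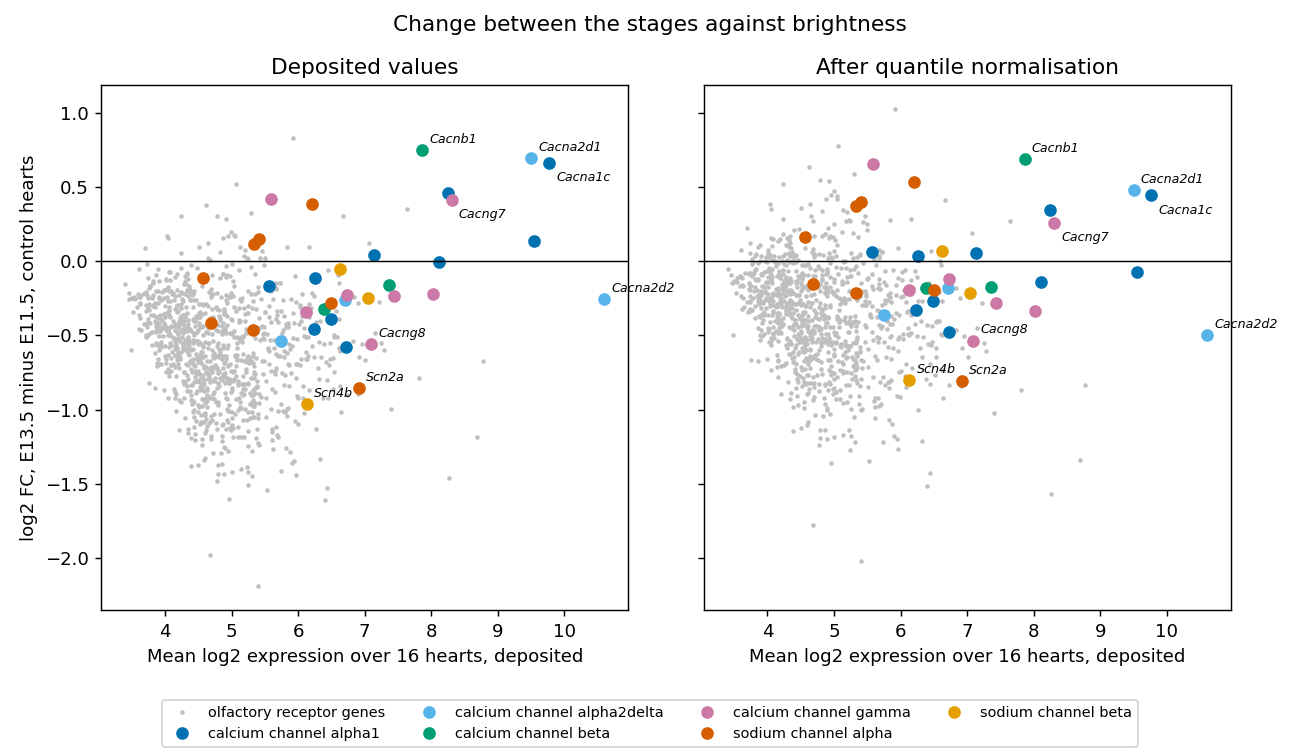
Difference between E13.5 and E11.5 in control hearts (y axis, log2 FC) against mean log2 expression over 16 hearts (x axis) for 35 channel genes (coloured by subunit type) and 1027 olfactory receptor genes (grey), on the deposited values and after quantile normalisation. The receptors centred at -0.56 before and -0.35 after normalisation, *Cacnb1* stayed near 0.7 in both panels and *Cacna1c* moved from 0.66 to 0.44.

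*Cacnb1* rose in control hearts. From 7.77, 7.14, 7.24 and 7.35 at E11.5 it came to 7.95, 8.21, 8.09 and 8.25 at E13.5, by 0.75 (log2 FC, standard error 0.14, adjusted p = 0.000741) and by 0.69 after quantile normalisation. Every E13.5 heart was above every E11.5 heart, in mutants too, where the values were 0.39 and 0.29 and the call was not made. *Cacna1c* was higher at E13.5 by 0.66 in control hearts and 0.62 in mutant hearts, again without overlap of the stages. It was at 10.04, 9.98, 10.25 and 10.01 in the E13.5 controls and at 10.01, 10.13, 10.14 and 10.16 in the E13.5 mutants. After quantile normalisation the differences were 0.44 and 0.39, below the threshold, and without mutant E11.5 replicate 3 the mutant value was 0.47. *Cacna2d1* went from 9.10, 9.48, 9.20 and 9.38 in control hearts to the E13.5 values given above, higher by 0.69, and by 0.48 after quantile normalisation, and by 0.34 and 0.12 in mutant hearts. Its second probe set gave 0.49 in control and 0.63 in mutant hearts, so the 2 probe sets ranked the genotypes in opposite order.

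The adjacent genes *Cacng7* and *Cacng8*, whose promoter windows are printed above, differed between stages in opposite directions. *Cacng7* rose in mutant hearts, from 7.82, 7.30, 8.08 and 7.55 at E11.5 to 8.61, 8.81, 8.19 and 8.53 at E13.5. The log2 FC was 0.85 (standard error 0.16, 1.80-fold, adjusted p = 0.000679) and 0.72 after quantile normalisation, against 0.41 and 0.26 in control hearts, which were at 8.73, 8.68, 8.67 and 8.74 at E13.5. The stages did not overlap in either genotype. *Cacng8* fell in control hearts, from 7.55, 7.26, 7.53 and 7.45 to 7.16, 6.84, 6.65 and 6.91, a difference of -0.56 (log2 FC, standard error 0.11, adjusted p = 0.00106), or -0.54 after quantile normalisation. In mutant hearts it was lower by 0.36, from between 7.15 and 7.30 to between 6.74 and 6.99. The fall was as large as the median of the olfactory receptors in the deposited values (-0.56), and exceeded theirs after quantile normalisation (-0.35). Without control E13.5 replicate 4 the deposited values gave -0.48, under the threshold.

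**Figure D4:**
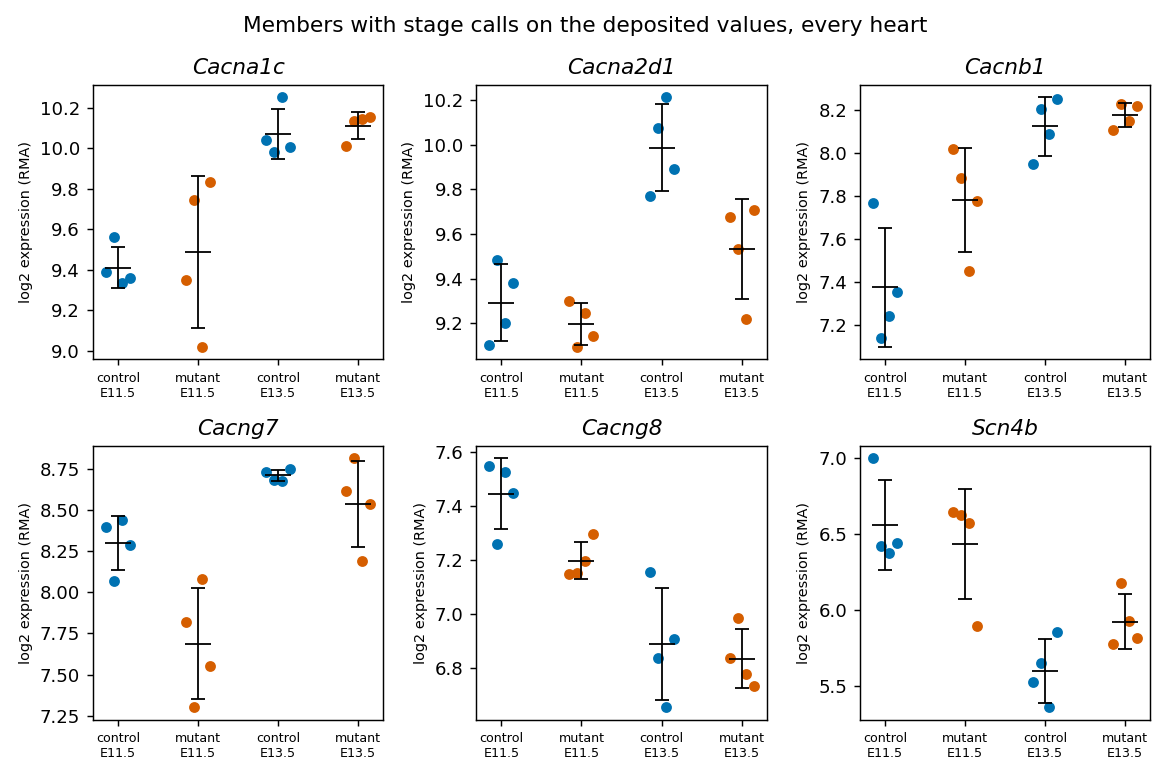
Log2 expression (y axis, RMA values) of 6 channel genes called between the stages on the deposited values, in each of the 16 hearts (points, control blue and mutant orange), with the group mean and SD as bars. *Cacna1c*, *Cacnb1* and *Cacng7* were higher in every E13.5 heart than in any E11.5 heart of the same genotype, *Cacng8* was lower, and *Scn4b* and *Cacna2d1* overlapped between the stages in mutants only.

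*Scn4b*, a beta subunit that shapes resurgent sodium current, fell in control hearts from 7.001, 6.42, 6.38 and 6.44 to 5.53, 5.65, 5.36 and 5.86. The log2 FC was -0.96 (standard error 0.18, adjusted p = 0.000794) and -0.80 after quantile normalisation. In mutant hearts it was -0.51, from 6.64, 6.63, 6.58 and 5.89 to 5.78, 6.18, 5.93 and 5.82, and -0.34 after quantile normalisation, where the call was lost. All 4 group means were within the range of the olfactory receptors, 50.9% of which were called lower in control hearts and 25.4% on both sets of values. *Cacna1s* was lower by 0.58 in control hearts, from 6.64, 7.12, 6.92 and 6.90 to the E13.5 values given above, and by 0.48 after quantile normalisation, where it was not called. In mutant hearts the difference was -0.18.

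The brightest probe set of *Scn2a* fell in both genotypes. Control hearts went from 7.24, 7.40, 7.33 and 7.50 to 6.65, 6.26, 6.44 and 6.69, and mutant hearts from 7.48, 7.41, 7.88 and 7.21 to 6.11, 6.26, 6.14 and 6.66. The log2 FC was -0.86 in control (adjusted p = 0.000527) and -1.20 in mutant hearts (adjusted p = 3.13e-05), and -0.81 and -1.16 after quantile normalisation. The 14 probe sets of the gene did not move as one. In control hearts 12 were lower and 2 higher at E13.5, from -1.05 to 0.63, and 3 were called lower and 1 higher on both sets of values. In mutant hearts 2 were called lower on both. The other 13 had mean levels between 4.3 and 5.78 over all hearts, below the 95th percentile of the olfactory receptors (6.30). The median over all probe sets gave -0.34 in control and -0.21 in mutant hearts, neither of them called. On chromosome 2, *Scn2a* lies beside *Scn3a*, and 3 coding genes separate it from *Scn1a*, *Scn9a* and *Scn7a*, which follow each other. In control hearts *Scn3a* differed by -0.42 between the stages, *Scn1a* by -0.11, *Scn9a* by -0.47 and *Scn7a* by -0.28. A second, dimmer probe set of *Scn9a* was called lower in control hearts on both sets of values, from 4.71, 4.71, 4.43 and 5.25 to 3.77, 3.93, 4.37 and 3.93, by -0.78 (log2 FC, adjusted p = 0.0027) and by -0.52 after quantile normalisation. Both probe sets of *Scn9a* were below the background in all 4 groups, and in mutant hearts they were at -0.30 and -0.29. The probe sets that name *Scn2a*, *Scn3a*, *Scn9a* or *Scn1a* together with a related channel, 3 in number, were left out.

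**Figure D5:**
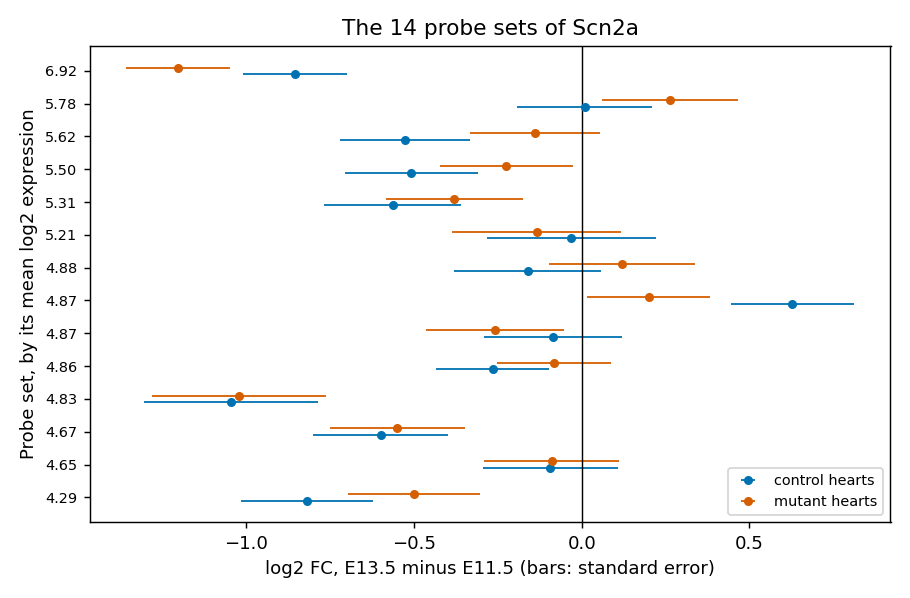
Difference between E13.5 and E11.5 (x axis, log2 FC with bars for the standard error) for the 14 probe sets of *Scn2a*, ordered by mean log2 expression (y axis), in control (blue) and mutant (orange) hearts. The brightest, at a mean of 6.92, was at -0.86 and -1.20, while the others ranged from -1.05 to 0.63 in control hearts.

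Genes that regulate these channels without being subunits were taken as a list of 31, of which 28 were measured and 23 exceeded the background in all groups. None was called between mutant and control hearts by limma at either stage. Before adjustment, *Rangrf*, *Nedd4l*, *Fgf12* and *Stac2* were higher and *Fgf14* lower at E11.5 (14.3% and 3.57%, against 4.57% and 4.77% of all genes), and *Sntb1*, a syntrophin, was lower at E13.5 (3.57%, against 1.98%). *Rangrf*, which helps sodium channels reach the membrane, differed by 0.62 (adjusted p = 0.133), *Nedd4l*, a ubiquitin ligase acting on them, by 0.43 (0.167), and *Fgf12*, which binds the sodium channel pore, by 0.66 (0.274). The median log2 FC of the list was 0.04 in the younger and 0.03 in the older hearts. Between stages, 10 regulators were called higher in control hearts (35.7%, against 16.5% of all genes), 8 of them on both sets of values (28.6%, against 9.92%), and 1 lower on both (3.57%, against 7.14%). In mutant hearts 11 were higher (39.3%, against 16.8%), 7 of them on both (25.0%, against 10.2%), and 2 lower on both (7.14%, against 7.28%). *Rangrf* rose by 1.59 in control and 1.06 in mutant hearts, *Fgf12* by 0.98 and 0.75, *Fgf11* by 0.92 and 1.04, and *Camk2d*, the main calmodulin kinase of heart muscle, by 0.77 and 0.79. *Camk2a* fell by 0.60 and 0.55, and *Ank3*, an ankyrin that holds sodium channels in place, was at -0.50 in control and fell by 0.53 in mutant hearts.

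Cation channels related to the family in structure, such as *Nalcn* and the endolysosomal and sperm channels, numbered 9. None was called between mutant and control hearts, with 1 lower and 1 higher before adjustment at E11.5 (11.1% each, against 4.77% and 4.57% of all genes) and none at E13.5. *Tpcn1* and *Tpcn2*, which exceeded the background in all groups, differed by 0.06 and -0.06 at E11.5.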

How the data were processed

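RNA of whole hearts was labelled with the Ambion WT Expression kit and hybridised to Affymetrix Mouse Gene 1.0 ST arrays. RMA (affy package) was used by the authors for normalisation and limma for differential expression, with versions not given in the sources used here. The deposited log2 values entered the tests as they were. Probe sets were named through the platform annotation, and a gene with several took the one with the highest mean over the 16 arrays.

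One linear model with 4 group means (12 residual degrees of freedom) was fitted with limma 3.58.1 (R 4.3.3) and its default moderation. For each comparison, Benjamini-Hochberg adjustment ran over 34760 probe sets. Tests were two-sided. A call needed a log2 FC beyond 0.5 in either direction at an adjusted p below 0.05, except for the difference between stages in mutant minus control, for which the adjusted p alone decided. The number of arrays limits the precision, and an exact permutation test of 4 hearts against 4 cannot go below p = 0.0286. Separate embryos are named by the labels, and litters and scan dates are not, so batches were not tested.

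All 35 members are described, with values in every heart of the groups compared for those called in a comparison or with the 6 smallest p at a stage. Values in every heart of *Cacna1h*, and of other members at single stages, were added after they had been seen. The members, lists and rules were chosen with earlier results of these data known. The fit was checked on simulated data. Alternatives were array weights, a robust and trended prior, quantile normalisation, cyclic loess normalisation (chosen after seeing the data), centring, dim probe sets left out (below percentile 40), single-gene probe sets only, the median over probe sets, a replicate term, a Y-linked covariate, no fold threshold, each stage alone, and leaving out hearts. Same-numbered hearts of the 2 genotypes did not deviate together (correlations between -0.06 and 0.008), so the numbers were not taken as pairs. Promoter windows come from RefSeq (GRCm38.p6). Plots used matplotlib 3.10.9 (Python 3.11.15).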

Additional observations from a re-analysis of the deposited data

Results flagged for a closer look

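In 4 of 56 groups of hearts examined over 14 members, 1 heart lay far from the other 3 of its group, where chance gives about 2.8. *Cacna1c* was at 10.014 in mutant E13.5 replicate 1, against 10.134 to 10.156 in the other mutants. *Cacna2d3* was at 5.385 in the same heart, against 5.698 to 5.741. *Scn4b* was at 5.893 in mutant E11.5 replicate 4, a heart that stood apart, against 6.577 to 6.644, and at 7.001 in control E11.5 replicate 1 against 6.378 to 6.442.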

How the results depend on the processing

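None of the 23 log2 FC values of described members changed sign under the 27 to 29 alternatives that gave it a value. The number of members called at E11.5 went from 0 to 1 (*Cacna1e*, lower) after quantile normalisation and with single-gene probe sets only, and it was 0 at E13.5, for the difference between stages and for the mean over stages under every alternative run. Between stages, control hearts gave 12 instead of 7 members without a threshold on the fold change and 12 without the 3 hearts that stood apart, and 6 to 11 when single hearts were left out, with 11 without control E13.5 replicate 1. Mutant hearts gave 9 instead of 4 without the fold threshold and 3 to 6 when single hearts were left out. With the replicate number as a block, 0 members were called by genotype, 8 between stages in control and 4 in mutant hearts, and the block lost no call of a described gene. The stage calls of *Cacnb1* and *Scn4b* in control and *Cacng7* in mutant hearts were made under every alternative in which they were tested, whereas that of *Scn4b* in mutant hearts was lost under 10 (adjusted p up to 0.195), and those of *Cacna1c*, *Cacna2d1* and *Cacna1s* after quantile or cyclic loess normalisation. That of *Cacna1s* was also lost without control E13.5 replicate 2 (-0.48). The cause was not tested. Dim members cannot be told from unexpressed genes on these arrays.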
